A study of Bos taurus with 40 samples.

Results

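Skeletal muscle of refed bulls was compared with muscle of continuously fed bulls on the 15th day of full feeding, in 20 of the 40 libraries of the series. The 20 libraries were taken by their titles: 10 from bulls of the restricted group and 10 from bulls of the control group, all biopsied at day 15 of period 2. The refed bulls had been fed a restricted amount for 125 days, meant to hold growth to 0.6 kg per day, before feed was offered without limit. The control bulls had feed without limit for the whole trial of 180 days and were expected to gain more than 1.5 to 2 kg per day. All bulls were male Holstein-Friesians, a dairy breed, and all were given concentrate (70%) and grass silage (30%), so the groups differed in the amount fed during period 1 and not in what was fed. The other 20 libraries came from both groups at day 120 of period 1, shortly before the restriction ended, and were read as the same 10 bulls of each group. One protocol text gives 20 bulls in the trial and another gives 20 in each feeding group, and each library was taken as 1 bull. Ages were not given in the sources used here.

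Compensatory growth is the faster than usual gain of an animal whose feed was limited for a time and then restored. Skeletal muscle makes up much of that gain. It grows mainly by enlarging existing fibres, which depends on the balance of protein synthesis and protein breakdown and on nuclei supplied by satellite cells, the resident stem cells of muscle. When feed is short, muscle of mammals generally lowers synthesis and shifts its fuel use, and feeding reverses this through insulin, insulin-like growth factor 1 and nutrient sensing. The comparison asks which transcripts of muscle differed early in that recovery. The biopsies are bulk tissue, so fewer cells of a type and less RNA per cell cannot be told apart. The files list genes by Ensembl cattle gene ID without names, and the reference table used here paired 0 of these IDs with a symbol. Genes are therefore described by ID, level and difference, no function is given to any of them, and the muscle label was not checked against marker genes.

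The day 15 libraries held 21.4 M to 32.97 M counts over genes (M, 1000000 counts), with a median of 25.6 M. Refed libraries averaged 26.9 ± 2.63 M counts and control libraries 25.3 ± 3.19 M (SD, n = 10 each), and this difference did not pass a two-sided permutation test of 100000 resamples (p = 0.251, 0.627 after Benjamini-Hochberg adjustment over 5 measures of the libraries). Reads outside annotated genes made up 10.0% to 11.2% in 4 of the 20 libraries, refed bull 10 and control bulls 2, 3 and 8, and 13.3% to 17.6% in the other 16. Over both biopsies 7 of 40 libraries were under 12%, and the model used here carried a term for them. All 4 of these day 15 libraries have a library code whose first number is 5 or 6, which no other day 15 library has, and what that number stands for is not stated in the labels. The 4 libraries are 1 refed and 3 control libraries, too few for a comparison among themselves. Control bull 7 also stood apart: its effective library size was 1.41 times its gene counts in the authors' scaling, against at most 1.11 in the other control libraries.

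In the first principal component of the 20 libraries, which held 37.3% of the variance of log2 levels, the 4 libraries under 12% scored -47.2 to -38.5 and the other 16 scored -2.61 to 18.9. With the library term removed, the first component (20.9%) was set by control bull 7, at -55.8, against -21.0 to 21.1 for the other 19. The second component (14.1%) ordered the libraries by feeding history. On it the refed libraries scored -0.69 to 20.3 and the control libraries -18.1 to 0.10, and 9 of 10 refed libraries lay above every control library. Refed bull 7 was the exception, and control bull 6 was the control library nearest to the refed ones.

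**Figure D1:**
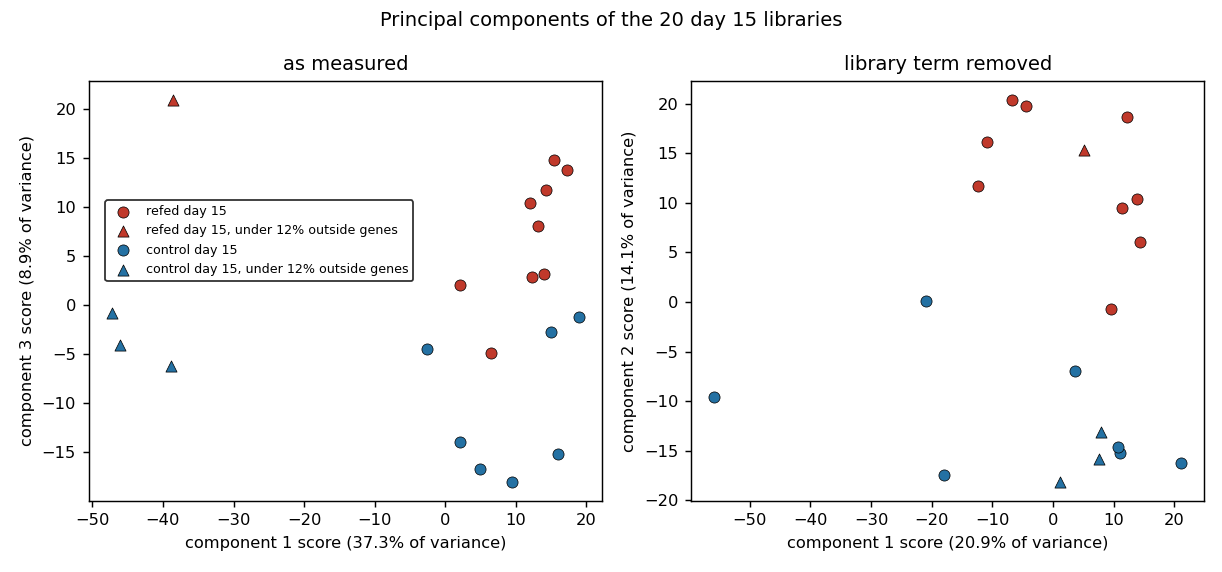
Principal component scores of the 20 day 15 libraries from log2 levels, as measured (left, components 1 and 3) and with the library term removed (right, components 1 and 2). Each point is 1 library, red for refed and blue for control bulls, and triangles mark the 4 libraries with under 12% of reads outside genes. At left the triangles sit at -47.2 to -38.5 on component 1, and at right 9 of 10 refed libraries lie above all control libraries on component 2.

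After 15 days of full feeding, 1413 of 12753 genes tested (11.1%) differed between refed and control muscle. A gene was called at an adjusted p under 0.05 by edgeR's quasi-likelihood test with Benjamini-Hochberg adjustment over all 12753 genes. Of these, 755 (5.92% of the genes tested) were higher in refed muscle and 658 (5.16%) were lower. Most differences were small: the median called gene differed by 1.29-fold, and 1104 calls (78.1%) were under 1.5-fold. In this fit, calls of over 1.5-fold ran the other way, with 114 genes higher and 195 lower in refed muscle. At 2-fold and over, 52 were higher and 81 lower, but without control bull 7 these were 66 and 35. Each other fit that leaves out 1 library kept more lower ones, and the dependence on the model is given below.

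In most called genes, most refed libraries lay on the called side of the control median. In 1196 of the 1413, at least 9 of 10 refed libraries lay on the called side of the control median, and in 646 all 10 did. In 85 called genes fewer than 8 did. The 755 higher genes together took 8.78 ± 0.415% of the counts in refed libraries and 7.04 ± 0.539% in control libraries (SD, n = 10 each). The 658 lower genes took 3.91 ± 0.284% in refed and 5.43 ± 0.283% in control libraries. These counts of libraries and both sums are descriptions, because the genes were chosen on the same libraries. The counts of libraries are not given over all genes tested.

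The split into higher and lower genes depended on the scaling and on the library term. With trimmed mean of M-values (TMM) scaling, 53.4% of the calls were higher in refed muscle and the log2 fold change over all genes had a median of -0.03. With total counts in place of scaling factors that median was -0.10, and 372 genes were called higher and 916 lower. Without the library term the split also turned, with 418 genes called higher and 500 lower. With the share of reads outside genes as a continuous covariate, 990 were called higher and 965 lower. Without the 7 libraries under 12%, 856 genes were called, 498 higher and 358 lower in refed muscle. Without control bull 7, 1323 genes were called, 744 higher and 579 lower. Without refed bull 10, 957 were called, 569 higher and 388 lower, and without control bull 4 the lower calls numbered 406.

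**Figure D2:**
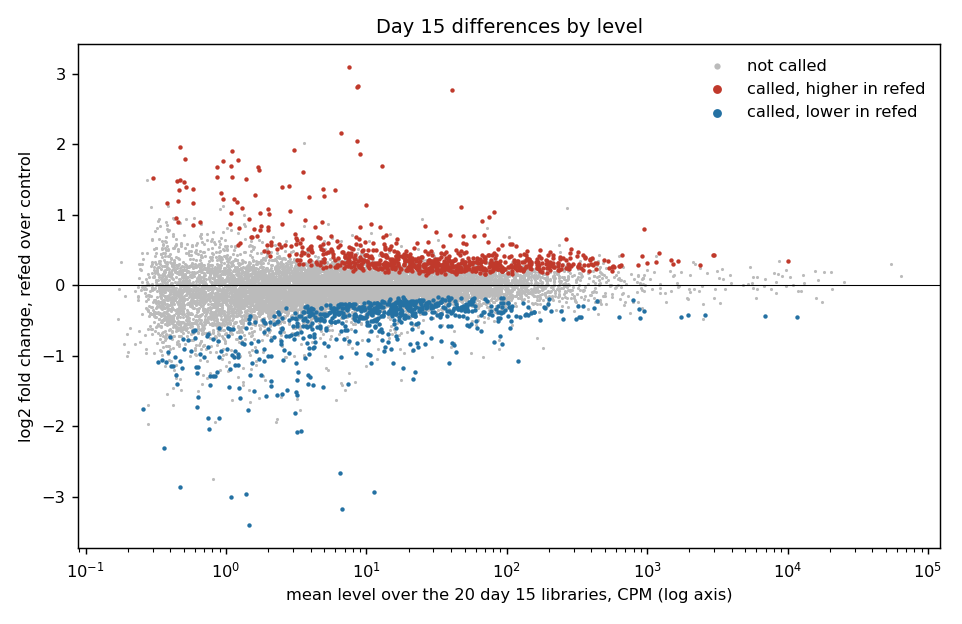
Log2 fold change of refed over control muscle at day 15 (vertical axis) against the mean level over the 20 libraries in counts per 1000000 (CPM, log axis), 1 point per gene tested. Red marks the 755 genes called higher and blue the 658 called lower in refed muscle. The large differences sit at low levels, and at 100 CPM and above red points outnumber blue ones.

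4 genes are given in full: in each direction the gene with the largest fold change and the gene with the smallest p, among the 1143 called genes that averaged 1 CPM or more and had at least 9 of 10 refed libraries on the called side of the control median. Levels are counts per 1000000 of the TMM-scaled library size and are not per gene length. The naming rule was simplified after the values were seen, because the IDs have no names.

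ENSBTAG00000013926 separated the groups completely. Its level was 72.3 to 138.1 CPM in refed libraries (median 97.1, mean 96.8 ± 19.1) and 34.5 to 67.9 CPM in control libraries (median 54.0, mean 52.8 ± 10.9, SD, n = 10 each). All 10 refed libraries lay above all 10 control libraries. The log2 fold change was 0.96 ± 0.11 (SE), or 1.95-fold, with an edgeR adjusted p of 9.32e-07. At day 120 the same gene ranged over 34.6 to 70.1 CPM in restricted libraries (median 53.6) and 31.8 to 63.7 CPM in control libraries (median 41.9), and the groups overlapped widely. Its day 120 difference was 0.25 ± 0.11 on the log2 scale and did not pass the edgeR test (adjusted p = 0.0991). The difference at day 15 exceeded that at day 120 by 0.71 ± 0.15 (log2, SE), with an edgeR adjusted p of 0.00259, which was 0.0505 in the edgeR fit without the library term and 0.000558 to 0.0505 over all alternatives.

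ENSBTAG00000039719 had the largest log2 fold change among the higher genes, and its refed libraries fell into a low and a high range. Refed bulls 2, 5, 9 and 10 had 20.1, 13.2, 27.7 and 54.1 CPM, refed bull 6 had 4.71 CPM, and the other 5 refed bulls had 2.66 to 3.20 CPM. Control libraries ranged from 0.449 to 3.67 CPM with a median of 1.37, so 5 of 10 refed libraries lay above all control libraries and all 10 lay above the control median. Means were 13.5 ± 16.7 CPM in refed and 1.50 ± 0.892 CPM in control libraries (SD, n = 10 each). The log2 fold change was 3.095 ± 0.44 (SE), or 8.54-fold, with an edgeR adjusted p of 4.93e-05. At day 120 no library had such a level: restricted libraries had 0.686 to 2.10 CPM (median 1.04) and control libraries 0.544 to 3.41 CPM (median 1.14). The difference there was -0.36 ± 0.47 on the log2 scale (edgeR adjusted p = 0.634), and the change between the biopsies was 3.46 ± 0.64 (log2, SE; edgeR adjusted p = 0.000594). Without the 7 libraries under 12%, which include refed bull 10, the day 15 log2 fold change was 2.58 with an edgeR adjusted p of 0.0037, and over all 35 alternatives the adjusted p was 1.42e-09 to 0.0236.

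ENSBTAG00000006686 had the smallest p among the lower genes and stood lower still during the restriction. Refed libraries had 9.66 to 16.1 CPM (median 10.7, mean 11.4 ± 2.00) and control libraries 14.1 to 35.6 CPM (median 26.4, mean 24.9 ± 6.23, SD, n = 10 each). The groups overlapped only through refed bull 9, at 16.1 CPM, and control bull 7, at 14.1 CPM. The log2 fold change was -1.17 ± 0.15 (SE), with an edgeR adjusted p of 1.17e-05. At day 120 restricted libraries had 2.82 to 7.85 CPM (median 5.47) and control libraries 16.9 to 33.5 CPM (median 26.4), without overlap. The log2 fold change there was -2.26 ± 0.16 (edgeR adjusted p = 3.88e-13). The day 15 difference was therefore smaller in size by 1.09 ± 0.22 on the log2 scale (edgeR adjusted p = 0.00108), and refed muscle still differed from control muscle.

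ENSBTAG00000009599 had the largest log2 fold change among the lower genes and rests on few counts. It met the naming limit of 1 CPM only through the control libraries, which averaged 2.75 CPM, against 0.183 CPM in refed libraries. It had no count in refed bulls 2 and 6 and 1 to 33 counts in the other refed libraries, which gave a median of 0.0799 CPM and a highest level of 0.976 CPM in refed bull 7. Control libraries had 0 to 283 counts, with a median of 1.24 CPM and a highest level of 14.1 CPM in control bull 2. A level of 3 counts, the limit that a count of 0 allows, corresponds to 0.0887 to 0.128 CPM in refed libraries and 0.0794 to 0.150 CPM in control libraries, and the refed median lies below it. All 10 refed libraries lay below the control median, and 5 of 10 control libraries lay above every refed library. These were control bulls 1, 2, 3, 7 and 9, at 2.24 to 14.1 CPM, and the other control bulls had at most 0.246 CPM. The same control bulls were the high ones at day 120, at 2.38 to 6.39 CPM, and the others had at most 0.0887 CPM there. The part of lasting differences between bulls in this gene was not tested. The log2 fold change was -3.40 ± 1.02 (SE), with an adjusted p of 0.0260 by edgeR. The call was lost in 6 of the 32 alternatives that gave a value for this gene, against 35 alternatives for each other named gene. Over these 32 the adjusted p ran from 0.00916 to 0.277. ENSBTAG00000009599 had no value in the fits to the day 15 libraries alone, with or without the title number as a block. It also had none in the fit to the authors' period 2 genes, so the call could not be checked in these fits. Without the 7 libraries under 12% the log2 fold change was -2.84 with an edgeR adjusted p of 0.0820. At day 120 7 of 10 restricted libraries had no count, against 1 of 10 control libraries, and the highest restricted level was 0.109 CPM, against 6.39 CPM in control libraries. The change between the biopsies was 2.92 ± 2.00 on the log2 scale (edgeR adjusted p = 0.401), and it was 2.79 with an adjusted p of 0.0196 when edgeR fitted every bull as its own replicate block, within a range of adjusted p of 0.0196 to 0.694 over the alternatives.

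**Figure D3:**
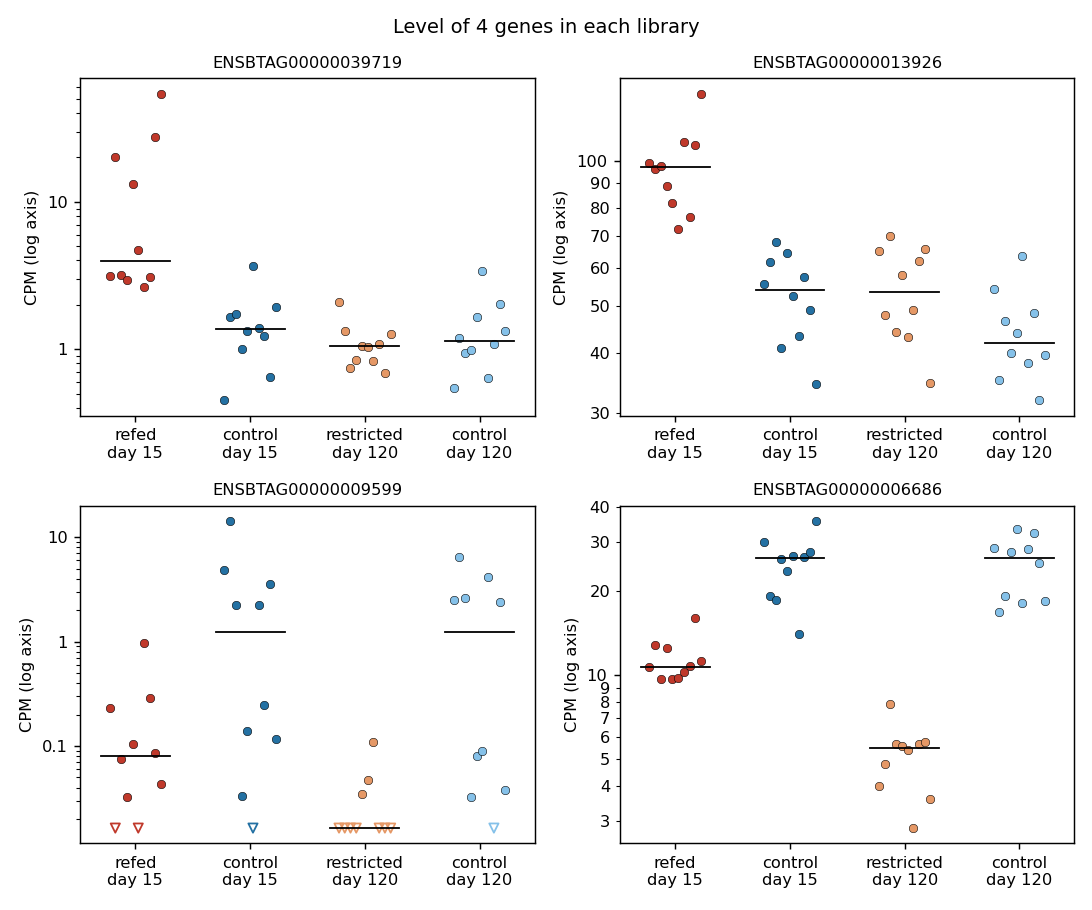
Level of the 4 genes in each of the 40 libraries, in CPM on log axes, as points in 4 groups of 10 (refed and control at day 15, restricted and control at day 120). Horizontal lines are group medians, and open triangles at the foot of a panel mark libraries with no count. ENSBTAG00000013926 separates refed from control libraries at day 15, and ENSBTAG00000006686 separates restricted from control libraries at day 120.

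Complete separation was rare. In 11 genes (0.0863% of the genes tested) all 10 refed libraries lay above all 10 control libraries, and in 6 genes (0.047%) all lay below. All 17 (0.133%) were called. The 11 higher genes had mean levels of 4.92 to 169.1 CPM and log2 fold changes of 0.26 to 1.37, with a median of 0.40. Their largest edgeR adjusted p was 0.00593. The 6 lower genes had mean levels of 3.96 to 20.9 CPM and log2 fold changes of -1.10 to -0.22, with a median of -0.57 and a largest edgeR adjusted p of 0.0396. All 11 higher genes and 5 of the 6 lower genes were also called without the 7 libraries under 12%. At day 120, 4 of the 11 higher genes and 1 of the 6 lower genes were called in the same direction, against 8.27% of all genes tested that were called higher there and 9.55% that were called lower.

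Differences of at least 2-fold were found in 52 called genes that were higher in refed muscle (0.408% of the genes tested) and 81 that were lower (0.635%). Both sets lay at low levels, with medians over genes of 1.50 CPM for the higher and 1.48 CPM for the lower genes. Among the 52 higher genes, all 10 refed libraries lay above the control median in 28 and at least 9 did in 44. Among the 81 lower genes, all 10 refed libraries lay below the control median in 33 and at least 9 did in 49. These counts are descriptions, because the genes were called on the same libraries. The spread differed between the sets: the median SD over libraries (log2) was 0.79 in refed and 0.69 in control libraries for the higher genes, and 0.51 in refed and 0.99 in control libraries for the lower genes.

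Single libraries carried much of these 2 sets. Control bull 7 was the highest control library in 49 of the 81 lower genes, in 27 of them at more than 2 times the next control library. Without control bull 7, the calls past 2-fold were 35 lower and 66 higher genes, and 41 of the 81 lower genes were still called. Refed bull 3 was the highest refed library in 23 of the 52 higher genes, in 8 of them at more than 2 times the next refed library. Without refed bull 3, 41 genes were called at least 2-fold higher, and 44 of the 52 were still called. Refed bull 10 was highest in 12 of the 52. When the 7 libraries under 12% were left out, the calls past 2-fold were 37 higher and 78 lower genes, and 32 of the 52 and 60 of the 81 were still called. With the code number as a factor in place of the term, the calls past 2-fold were 50 higher and 41 lower genes, and 47 of the 52 and 37 of the 81 were still called at any size. With limma and voom they were 45 higher and 38 lower genes, and 46 of the 52 and 36 of the 81 were still called.

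The share of genes called and the direction of the calls changed with the level of the gene. Below a mean of 1 CPM, 21 of 1689 genes were called higher and 45 lower in refed muscle. From 1 to 10 CPM, 178 of 5347 genes were called higher and 250 lower. From 10 to 100 CPM, 403 of 4845 were called higher and 318 lower. From 100 to 1000 CPM, 143 of 780 genes (18.3%) were called higher and 40 (5.13%) lower, so that 78.1% of the calls in this class were higher in refed muscle. At 1000 CPM and over, 10 of 92 genes were called higher and 5 lower.

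The precision also changed with the level: the median SE of the log2 fold change was 0.29 below 1 CPM and 0.09 from 100 to 1000 CPM, and the median called difference was 2.24-fold and 1.24-fold in these classes. In the class from 100 to 1000 CPM, 107 genes were called higher and 15 lower without the 7 libraries under 12%. With total counts in place of scaling factors, 95 were called higher and 80 lower in that class, and in the class from 10 to 100 CPM the direction turned, with 173 higher and 468 lower. It also turned in that class without the library term, with 217 higher and 234 lower. The 10 most abundant genes, at 15555 to 63835 CPM, had log2 fold changes of -0.24 to 0.31. The count of edgeR calls among them was 0, with a lowest adjusted p of 0.0820. At an unadjusted p under 0.05 it was 2, and by adjusted p it was 1 with DESeq2 and 0 with limma and voom. The 10 highest genes of each library, chosen library by library, took 27.7 ± 1.78% of the counts in refed libraries. In control libraries they took 27.1 ± 2.36% (SD, n = 10 each), and the difference did not pass a two-sided permutation test (p = 0.539). They need not be the 10 genes above.

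**Figure D4:**
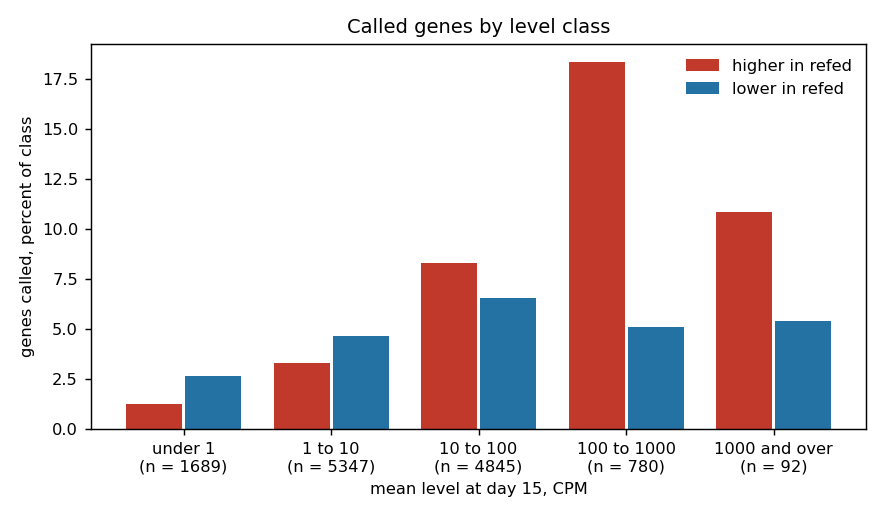
Percent of the genes of each level class that were called higher (red) or lower (blue) in refed muscle at day 15, with classes by mean CPM over the 20 libraries and n the genes tested in each. In the class from 100 to 1000 CPM, 18.3% were higher and 5.13% lower, while below 10 CPM lower calls were the more frequent.

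The differences of day 15 were set beside those of day 120, where 2273 genes (17.8% of the genes tested) were called between restricted and control muscle, 1055 higher (8.27%) and 1218 lower (9.55%). Of the 1413 genes called at day 15, 386 had also been called at day 120, which is 27.3% of the day 15 calls and 17.0% of the day 120 calls. The libraries of the 2 biopsies are separate but were taken as coming from the same bulls. Libraries of 1 bull correlated at 0.14 to 0.46 across the biopsies in their deviations from the group means. The part of this in the calls shared by both biopsies, and in the day 15 values of the day 120 calls, was not tested. Whether the difference between the feeding groups changed from the earlier to the later biopsy was tested as the day 15 difference minus the day 120 difference. This change was called in 1152 genes (9.03%), 610 with a more positive difference at day 15 (4.78%) and 542 with a more negative one (4.25%). With bull as a random effect in limma, which uses the pairing of libraries within a bull, 1730 genes were called, 907 more positive and 823 more negative.

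In 270 genes the difference was called at both biopsies in the same direction, 169 higher and 101 lower than in controls. Their log2 differences were of similar size at both times: the medians were 0.32 at day 15 and 0.32 at day 120 for the higher genes, and -0.47 at day 15 and -0.50 at day 120 for the lower genes. Of the 270, 132 had the smaller difference at day 15, and the change itself was called in 4. One of these 4 is ENSBTAG00000006686, described above. Since the genes had to pass the test at both times, these medians lie above what an unselected set would give.

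In 116 genes the difference was called at both biopsies in opposite directions. Of these, 65 were higher in refed muscle at day 15 and lower in restricted muscle at day 120, with median log2 differences of 0.34 at day 15 and -0.38 at day 120. The other 51 were lower in refed muscle at day 15 and higher in restricted muscle at day 120, with medians of -0.38 at day 15 and 0.36 at day 120. The change was called in all 116, which the choice of genes called in opposite directions nearly fixes. With the 7 libraries under 12% left out, 183 genes were called in the same direction at both biopsies and 39 in opposite directions, and without the library term 101 and 61 were.

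A further 320 genes were called at day 15 and not at day 120, with the change itself called. They comprised 179 genes that were higher in refed muscle, with median log2 differences of 0.40 at day 15 and -0.12 at day 120, and 141 that were lower, with medians of -0.43 at day 15 and 0.16 at day 120. ENSBTAG00000013926 and ENSBTAG00000039719 belong to the higher ones. Of the 320, 31 had the same sign at both biopsies. The choice of genes with a called change favours day 120 values of the opposite sign, so the day 120 medians and this count are descriptions. The remaining 707 day 15 calls, 342 higher and 365 lower, were not called at day 120 and the change was not called either, so they were not shown to differ between the biopsies. In all, the change was called in 440 of the 1413 genes (31.1%), against 9.03% of all genes tested. Without the 7 libraries under 12% it was called in 201 of 856. The genes were chosen for their day 15 difference, which is one term of the change, so these counts are descriptions.

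The genes at least 2-fold apart were also set beside day 120, where 8.27% of all genes tested were called higher and 9.55% lower, and beside the change, called in 9.03%. Since they were chosen for a large day 15 difference, which is one term of the change, their counts for the change are a description. Of the 52 that were higher in refed muscle, 3 had been called higher and 15 lower in restricted muscle at day 120, and the change was called in 36. Of the 81 that were lower in refed muscle, 12 had been called lower and 2 higher at day 120, and the change was called in 21. The difference between these 2 sets was not tested.

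**Figure D5:**
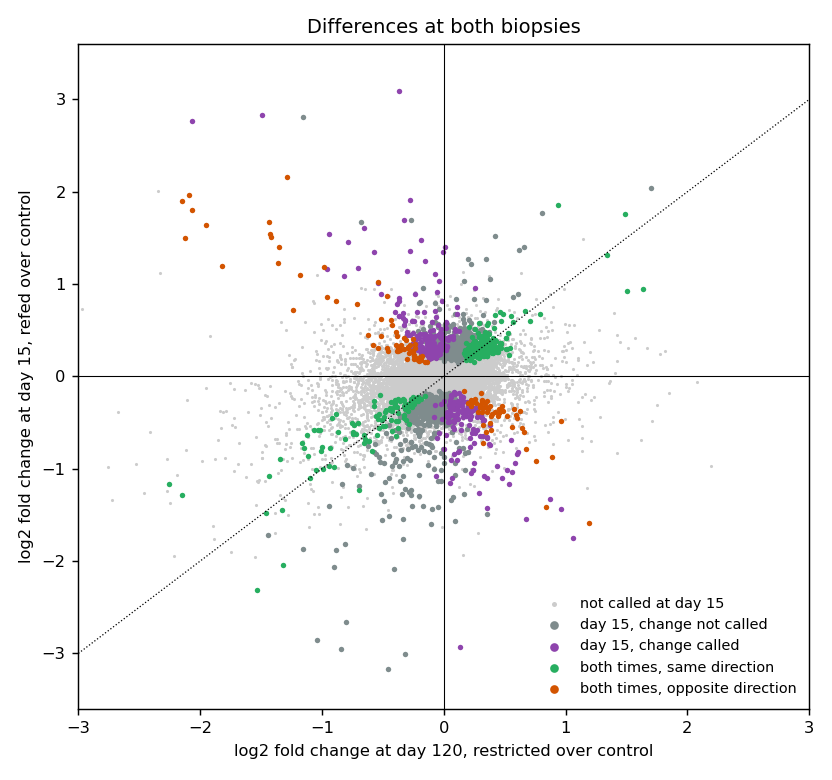
Log2 fold change of refed over control muscle at day 15 (vertical axis) against restricted over control muscle at day 120 (horizontal axis), 1 point per gene tested, with the dotted line marking equal differences. Green points are the 270 genes called at both biopsies in the same direction, orange points the 116 called in opposite directions, purple points the 320 called at day 15 with a called change, and dark grey points the other 707 day 15 calls. The orange points fill the upper left and lower right quadrants, and 6 genes lie outside the axes.

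Seen from the earlier biopsy, 1887 of the 2273 day 120 calls were no longer called at day 15, and the change was called in 578 of them. Over all 2273 day 120 calls, the median difference at day 15, signed so that the day 120 direction is positive, was 0.07 (log2). The median size of the same 2273 differences at day 120, which is raised by the choice of called genes, was 0.40. Individual refed bulls differed in how far they stood in the day 120 direction. Over the day 120 calls, the median distance of a refed library from the day 15 control group, signed in the same way, was 0.00373 to 0.238 (log2; median over bulls 0.0391), with refed bull 7 highest and refed bull 9 next at 0.118. For single control libraries it was -0.110 to 0.0985, with a median of 0.00339. Only these 2 refed bulls therefore lay beyond the range of the control bulls.

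The spread between bulls was compared as a description, with no test. Over the 11064 genes that averaged 1 CPM or more, the median SD of log2 levels between libraries, with the library term removed, was 0.216 in refed and 0.242 in control muscle, and 37.9% of the genes had the larger SD in refed muscle. Over the 1347 called genes among these it was 0.190 in refed and 0.209 in control muscle. Control bull 7 is included in these values.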

How the data were processed

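Messenger RNA of muscle biopsies was sequenced from single-end TruSeq libraries, per the labels' protocols. Per the submitters' processing notes, CASAVA 1.4, TopHat, HTSeq and edgeR were used with the cattle assembly UMD3.1, with settings not given in the sources used here. The authors deposited whole-number read counts for 24616 genes in each library, which all tests used. The authors also deposited a normalised signal, in counts per 1000000 of an effective library size (10977 genes in period 2), which multiplied back came within 0.000602 of whole counts and served only as a check and as alternatives. Entries that name no gene stayed out of library sizes and tests. They were the reads outside genes (10.0% to 17.6% at day 15), the ambiguous reads and 92 spike-in entries at 0.

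All 40 libraries entered 1 edgeR 4.0.16 fit in R 4.3.3, a quasi-likelihood F test with robust dispersions, TMM factors and 12753 genes kept by filterByExpr (minimum count 10, minimum total 15). It had 4 group means and a 2-level term for the 7 libraries under 12% of reads outside genes. Standard errors were derived from the F statistics. The steps were tested on simulated data. Library measures and summaries were computed in Python 3.11.15 with NumPy 2.4.6, SciPy 1.17.1 and pandas 2.3.3. Alternatives were DESeq2 1.42.0, limma 3.58.1 with voom, other scalings, filters, terms and thresholds, replicate blocks, and leaving out each library.

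Title numbers did not pair the feeding groups at day 15: deviations of same-numbered refed and control libraries correlated at -0.26 to 0.19, over 0.1 in 2 of 10 pairs. Across the biopsies the same numbers correlated at 0.22 to 0.42 in the restricted group and 0.14 to 0.46 in the control group. This was over 0.1 in all 10 pairs of each, so they were taken as the same bull. The closest library carried the same number in 10 of 10 cases in the restricted group and in 7 of 10 in the control group, so the control pairing is less sure. No pair of libraries within a day 15 group agreed within sampling noise. Reads carry no molecular identifiers, so floors from counts cover counting error only. The libraries compared, the term and the rules were chosen with earlier results of these data known. The rule for named genes needed gene names and took 12 genes in each direction; with 0 IDs paired with names, it was reduced to 2 in each direction after the values were seen, and no list of genes and no mitochondrial share was computed. Counts by level class, by state at both biopsies and for 2-fold differences under other fits were added after seeing the data.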

Additional observations from a re-analysis of the deposited data

Results flagged for a closer look

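Of 20 sets of 10 values examined (5 measures of the libraries, the 4 named genes and the authors' scaling, in each group), 8 held a library whose gap to the nearest other value was past Dixon's limit for 10 values as a share of the group's range. For normally distributed values, chance alone passes it in about 1 in 20 sets. The levels of the named genes are untransformed CPM, so this rate need not hold for them, and the count of 8 was not tested against chance. In refed libraries, bull 10 had 10.0% of reads outside genes, against 13.3% in the next library. ENSBTAG00000039719 was at 54.1 CPM in refed bull 10, against 27.7 CPM in the next. ENSBTAG00000009599 was at 0.976 CPM in refed bull 7, against 0.285 CPM in the next, and ENSBTAG00000006686 at 16.1 CPM in refed bull 9, against 12.9 CPM in the next.

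In control libraries, bull 8 had 32.6 M gene counts, against 26.7 M in the next library. The authors' effective library size of control bull 7 was 1.41 times its gene counts, against 1.11 in the next. ENSBTAG00000039719 was at 3.67 CPM in control bull 6, against 1.93 CPM in the next. ENSBTAG00000009599 was at 14.1 CPM in control bull 2, against 4.85 CPM in the next.

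The difference between the feeding groups changed between the biopsies in 1152 genes by edgeR's test of the difference itself. Among the named genes the change was 3.46 on the log2 scale for ENSBTAG00000039719 (edgeR adjusted p = 0.000594), 0.71 for ENSBTAG00000013926 (adjusted p = 0.00259) and 1.09 for ENSBTAG00000006686 (adjusted p = 0.00108). The part of single libraries in these changes was not tested beyond the fits that leave out each library in turn.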

How the results depend on the processing

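Without the library term, 918 genes were called at day 15 (418 higher and 500 lower, the split turned), 1249 at day 120 (573 higher, 676 lower) and 385 with a more positive change. Without the 7 libraries under 12%, these were 856 (498 higher, 358 lower) at day 15 and 698 (357 and 341) for the change. The difference of refed minus control libraries was then -0.677 percentage points for reads outside genes (0.271 with them). For genes with a count it was -53.9 (22.1 with them). None of these library differences passed a two-sided permutation test (adjusted p = 0.289 and 0.723 without them, 0.888 for both with them). Total counts gave 372 higher genes at day 15 and 512 at day 120. At an adjusted p under 0.01, the calls were 525 (325 higher, 200 lower) at day 15, 1135 (565 and 570) at day 120 and 487 (259 and 228) for the change. With bull as a random replicate block in voom, the change was called in 1730 genes, 823 of them more negative. With the title number as a replicate block in the 20 libraries alone, 609 genes were called at day 15 (367 higher, 242 lower), and that number does not pair the groups. The causes were not tested. DESeq2 called 1596 genes at day 15, voom 1309, and the fit to the 20 libraries alone 1169.

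Leaving out 1 library gave 957 to 1562 calls at day 15 (569 to 838 higher, 388 to 724 lower) and 943 to 1464 for the change (445 to 687 more positive, 480 to 778 more negative), with the fewest day 15 calls without refed bull 10. At day 15, 709 genes were called in the same direction in all 20 such fits, 459 in 10 fits with other tools, scaling factors, terms or libraries, and 428 in all 30. Over all alternatives, 309 of the 317 values of named genes kept their direction and their side of the threshold, 7 passed it no longer and 1 passed it newly. These values include day 120 differences and changes that were not called in the main fit and stayed so. The genes were named for their day 15 result in that fit, so the count is a description. Counts over gene lists were not run, because the IDs were not paired with names. Depth limits ENSBTAG00000009599, whose refed libraries hold 0 to 33 counts.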
